A study of Canis lupus familiaris with 12 samples.

Results

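The alpha-arrestin TXNIP, 3 further alpha-arrestins (ARRDC2, ARRDC3 and ARRDC4), the glucose sensor MLXIP and 5 genes of glucose uptake and its first steps (SLC2A1, SLC2A3, HK1, HK2 and PFKP) were followed in C2 cells treated with masitinib. Their probe sets were taken by gene symbol from the annotation of the array, and all 10 genes were found among 15115 measured genes, with 21 of the 29254 probe sets that carry a single symbol. The genes were chosen by their function and by their log2 values at 0, 12, 24 and 72 h on these same arrays, so their values are given as a description with no test. C2 is 1 cell line of canine mast cell tumour cells that carries an activating tandem duplication in the juxtamembrane part of KIT, and masitinib is an inhibitor of KIT and related tyrosine kinases. RNA was taken from flasks of C2 cells before treatment (0 h, labelled control) and from flasks kept with 100 nM masitinib mesylate for 12, 24 and 72 h, in the same serum-supplemented RPMI-1640 medium, and 3 Affymetrix Canine Genome 2.0 arrays were run for each time point, 12 in all. All groups are the same KIT-mutant line, and no untreated flask of a later time point was analysed, so time in culture and treatment cannot be told apart.

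Alpha-arrestins are adaptor proteins that bring membrane proteins to ubiquitin ligases of the NEDD4 family, which sends the cargo into endocytosis. TXNIP, in human and mouse cells, binds thioredoxin and lowers glucose uptake by removing glucose transporters from the cell surface. Its transcription is driven by MondoA, the product of MLXIP, which responds to glucose 6-phosphate, so that glucose entering through SLC2A1 (GLUT1) or SLC2A3 (GLUT3) and phosphorylated by the hexokinases HK1 and HK2 feeds back on uptake. PFKP, the platelet form of phosphofructokinase, commits the sugar to glycolysis.

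Expression levels are given as log2 values, on which 1 unit is a doubling, and each gene is described by its brightest probe set with the others beside it. Levels of different probe sets are not comparable with each other. Array medians lay between 5.892 and 5.95, Pearson's r across probe sets between arrays of a time point was 0.9946 to 0.9979, and 0 pairs of arrays were identical. Of 10 mast cell markers, 8 were measured, none in the dimmest 40% of probe sets, and their summed level lay at 16.26 to 16.29 at 0 h, 16.63 to 16.65 at 12 h, 16.86 to 16.93 at 24 h and 16.91 to 16.98 at 72 h. The summed level of 4 measured epithelial markers, mostly EPCAM and KRT18, was 9.13 to 9.22, 9.80 to 10.05, 9.19 to 9.25 and 7.85 to 7.95 at 0, 12, 24 and 72 h. Macrophage (9.21 to 9.54), lymphocyte (7.79 to 8.25) and fibroblast (7.29 to 7.61) sums varied less, and 2 of 7, 2 of 5 and 5 of 6 of these markers were in the dimmest 40%. A sum can hide members that move apart. By the thresholds defined below, EPCAM and KRT18 rose at 12 h and fell at 72 h, while CDH1, another epithelial marker, rose at 72 h. Of the lymphocyte markers, CD3D fell and CD79A rose at 72 h. As a sign of RNA quality, the GAPDH probe sets of the 3' end exceeded those of the 5' end by 0.626 ± 0.0599 at 0 h, 0.457 ± 0.0587 at 12 h, 0.546 ± 0.182 at 24 h and 0.474 ± 0.0958 at 72 h (SD, n = 3 each). The part of the marker shifts and of RNA quality in the results was not tested. The array number limits the precision. Each array was given the same amount of total RNA, so a level is relative to the RNA of its sample. A lower level in these bulk cultures can mean a smaller share of cells with the transcript or less of it per cell, which cannot be told apart.

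TXNIP was the member with the largest change. Its level was 8.86, 8.88 and 8.99 at 0 h, 11.96, 12.05 and 12.09 at 12 h, 12.88, 12.73 and 12.78 at 24 h and 12.85, 12.76 and 12.88 at 72 h. Every treated array lay above every array at 0 h, every array at 24 and 72 h lay above every array at 12 h, and the arrays of 24 and 72 h overlapped. The mean was 12.03 ± 0.069 at 12 h, against 8.91 ± 0.068 at 0 h (SD, n = 3 each), a difference of 3.13 (SE 0.0668) or 8.74-fold. At 24 h the mean of 12.80 ± 0.075 exceeded that of 0 h by 3.89 (SE 0.0668), which is 14.8-fold, and at 72 h the mean of 12.83 ± 0.063 exceeded it by 3.92, or 15.2-fold. Between 24 h and 12 h the difference was 0.76 (95% interval 0.62 to 0.91), and between 72 h and 24 h it was 0.03 (−0.11 to 0.18). Among the changes of all 15115 genes, ordered from the highest, TXNIP ranked 2 at 12 h, 2 at 24 h and 6 at 72 h.

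The second TXNIP probe set, of a type that Affymetrix designed to match more than 1 transcript, read 6.42, 6.34 and 6.56 at 0 h, 8.65, 8.96 and 8.98 at 12 h, 9.28, 9.74 and 9.44 at 24 h and 9.47, 9.43 and 8.88 at 72 h. It had the same direction with smaller differences of 2.43, 3.05 and 2.82 (SE 0.158) at 12, 24 and 72 h. One array at 72 h, replicate 3, lay within the 12 h range on this probe set, whereas on the brightest probe set it was the highest of its time point.

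ARRDC4, which in human cells is, like TXNIP, a MondoA target that lowers glucose uptake, was higher than at 0 h at all 3 treated times. It read 6.53, 6.13 and 5.98 at 0 h, 7.31, 7.67 and 7.43 at 12 h, 7.30, 7.47 and 7.39 at 24 h and 7.28, 7.16 and 6.60 at 72 h. No treated array overlapped the arrays at 0 h, and the 72 h arrays all lay below those of 12 and 24 h, with replicate 3 at 72 h close to the highest array at 0 h. The differences from 0 h were 1.26, 1.17 and 0.80 (SE 0.173) at 12, 24 and 72 h, or 2.39-, 2.26- and 1.74-fold. Between 24 h and 12 h the difference was -0.08 (95% interval −0.46 to 0.29), between 72 h and 24 h it was -0.38 with a 95% interval of −0.75 to 0.00, and between 72 h and 12 h it was -0.46 (−0.84 to −0.08).

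ARRDC3, an alpha-arrestin known in human cells for the trafficking of the beta-adrenergic receptor, read 6.25, 6.37 and 6.49 at 0 h, 6.80, 7.24 and 7.22 at 12 h, 7.39, 7.50 and 7.28 at 24 h and 7.39, 7.36 and 7.19 at 72 h. All treated arrays lay above all arrays at 0 h, and replicate 1 at 12 h lay apart below the other arrays of its time point. The differences were 0.72, 1.02 and 0.94 (SE 0.116), or 1.64-, 2.03- and 1.92-fold. Between 72 h and 24 h the difference was -0.08 (95% interval −0.33 to 0.17).

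ARRDC2, a further member of the alpha-arrestin family, took another course. It read 6.43, 6.58 and 6.68 at 0 h, 6.85, 6.76 and 6.89 at 12 h, 7.13, 6.94 and 6.89 at 24 h and 7.14, 7.46 and 7.45 at 72 h. The arrays at each treated time lay above those at 0 h, and those at 72 h lay above all others. The differences from 0 h were 0.27, 0.42 and 0.79 (SE 0.0993), or 1.21-, 1.34- and 1.72-fold, and 0.36 (95% interval 0.15 to 0.58) between 72 h and 24 h.

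**Figure D1:**
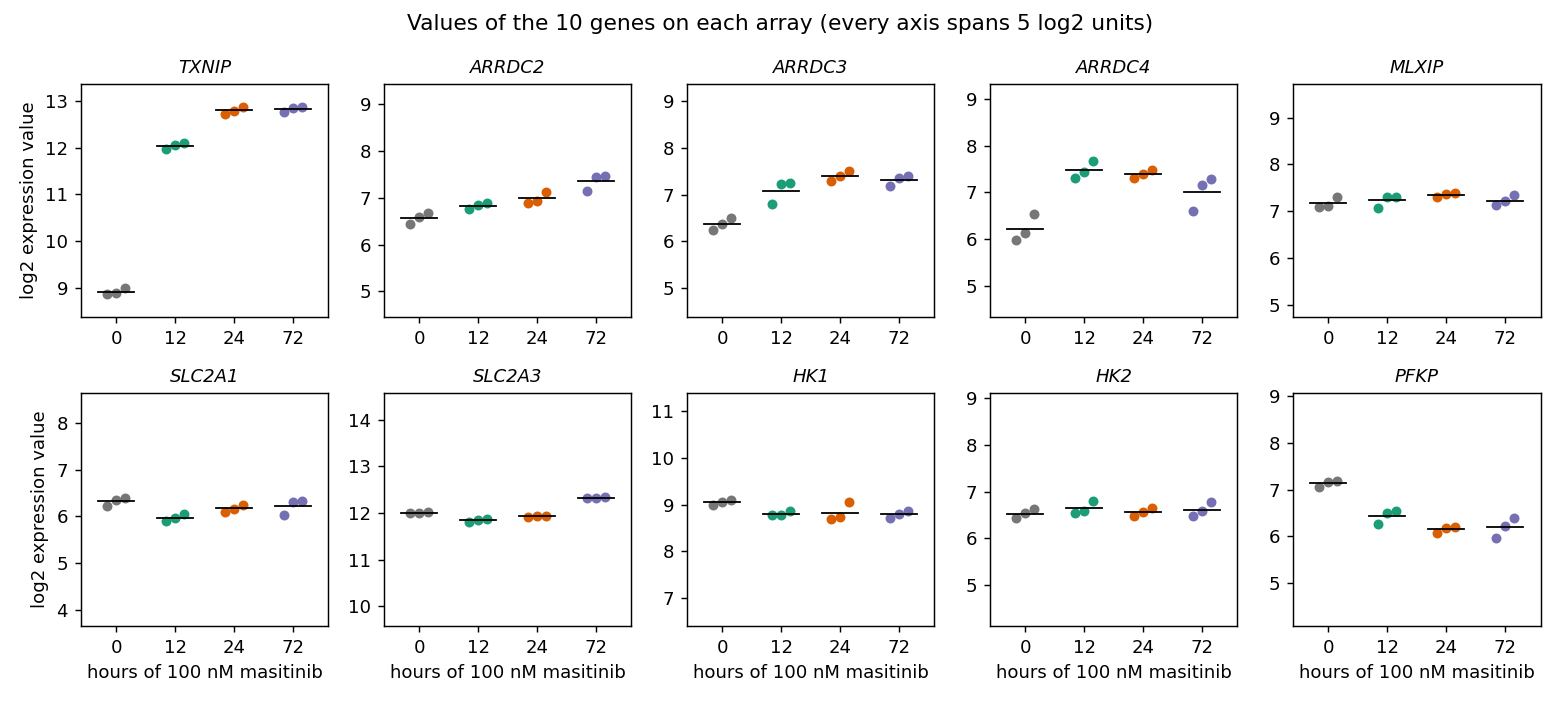
Log2 expression value (vertical axis) of each of the 10 genes by its brightest probe set at 0, 12, 24 and 72 h of 100 nM masitinib (horizontal axis), with 1 point per array, ordered by value within a time point, and a line at the mean of 3 arrays. TXNIP stands at 12.03 to 12.83 on average in treated cells, against 8.91 at 0 h, PFKP lies lower in treated cells, and MLXIP and HK2 have means within 0.18 of their mean at 0 h.

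MLXIP, the gene of the MondoA transcription factor, had a brightest level of 7.11, 7.09 and 7.30 at 0 h, 7.31, 7.31 and 7.07 at 12 h, 7.39, 7.30 and 7.36 at 24 h and 7.34, 7.21 and 7.13 at 72 h. The arrays of 12 and 72 h overlapped those of 0 h, and those of 24 h lay at or just above its highest array. The differences were 0.06 (95% interval −0.13 to 0.25), 0.18 (−0.00 to 0.37) and 0.06 (−0.13 to 0.25) at 12, 24 and 72 h. The second probe set differed by 0.05, 0.06 and 0.19, and the third, in the dimmest 40%, by -0.19, -0.29 and -0.30, so the probe sets disagreed in sign and all differences were below 1.5-fold.

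SLC2A1 (GLUT1), the widely expressed glucose transporter, read 6.36, 6.23 and 6.40 at 0 h, 6.05, 5.96 and 5.90 at 12 h, 6.17, 6.10 and 6.25 at 24 h and 6.04, 6.32 and 6.33 at 72 h. Only the arrays of 12 h lay wholly below those of 0 h, with a difference of -0.37 (SE 0.0872, 95% interval −0.56 to −0.18). The differences at 24 and 72 h were -0.16 and -0.10. Both other SLC2A1 probe sets were in the dimmest 40% and differed by −0.19 to 0.03.

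SLC2A3 (GLUT3), the high-affinity transporter, had small differences with a very narrow spread between arrays. It read 12.00, 11.99 and 12.01 at 0 h, 11.80, 11.88 and 11.85 at 12 h, 11.93, 11.92 and 11.93 at 24 h and 12.31, 12.35 and 12.31 at 72 h. The arrays at 12 and 24 h were all below and those at 72 h all above the arrays at 0 h. The differences from 0 h were -0.16, -0.07 and 0.32 (SE 0.0511), the last 1.25-fold, and 72 h exceeded 12 h by 0.48 (95% interval 0.37 to 0.59). The second probe set ran the same way (-0.20, -0.17 and 0.22), the third differed by -0.30, -0.38 and -0.11, and the fourth, in the dimmest 40%, by -0.93, -0.60 and -0.38. The higher level at 72 h was thus seen on the 2 brightest of 4 probe sets.

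HK1, the hexokinase of most tissues, read 8.99, 9.05 and 9.11 at 0 h, 8.78, 8.78 and 8.87 at 12 h, 9.06, 8.69 and 8.74 at 24 h and 8.72, 8.80 and 8.87 at 72 h. The arrays of 12 and 72 h lay below those of 0 h, and replicate 1 at 24 h lay among them. The differences were -0.24, -0.22 and -0.26 (SE 0.0903), the second being -0.34 without that array. A second HK1 probe set differed by 0.14, 0.09 and 0.02 and the last by -0.44, -0.47 and -0.06, so the probe sets disagreed.

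HK2, the hexokinase that is induced by growth signals in many cells, read 6.43, 6.54 and 6.63 at 0 h, 6.81, 6.55 and 6.59 at 12 h, 6.57, 6.47 and 6.65 at 24 h and 6.77, 6.59 and 6.49 at 72 h. All treated times overlapped 0 h. The differences were 0.11 (95% interval −0.09 to 0.32), 0.03 (−0.17 to 0.23) and 0.08 (−0.12 to 0.28), and those of the other HK2 probe set were -0.05, 0.00 and -0.02.

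PFKP was the only member that was lower past the thresholds defined below on the values as deposited, which is a description and not a test. It read 7.05, 7.17 and 7.19 at 0 h, 6.27, 6.50 and 6.54 at 12 h, 6.18, 6.20 and 6.08 at 24 h and 6.22, 5.96 and 6.39 at 72 h. All treated arrays lay below all arrays at 0 h, those of 24 h lay below those of 12 h, and those of 72 h spanned both. The differences from 0 h were -0.70, -0.98 and -0.95 (SE 0.104), which are 1.63-, 1.97- and 1.93-fold lower levels. Ordered from the lowest change of all genes it ranked 732, 801 and 857.

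**Figure D2:**
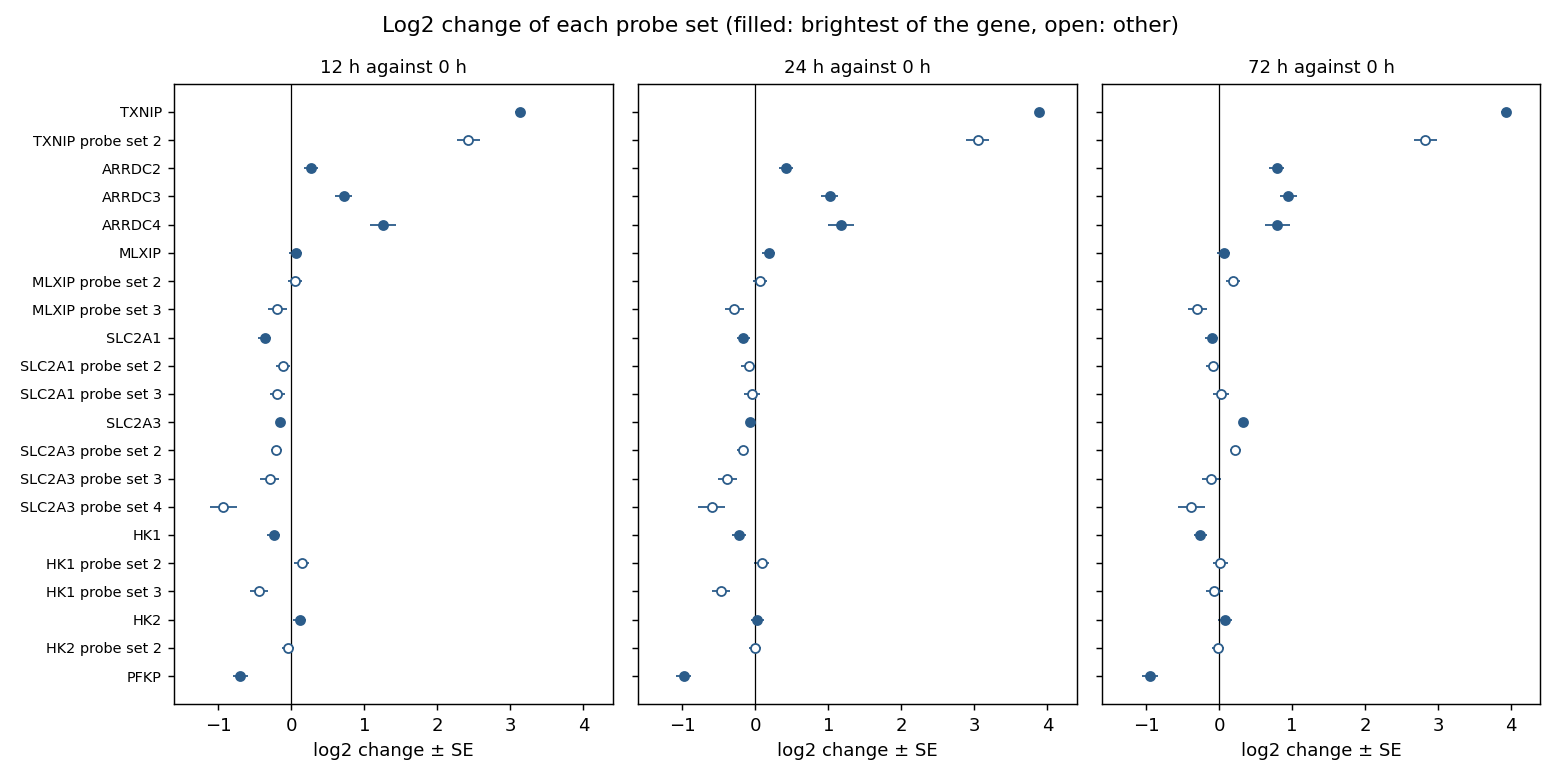
Log2 change ± SE (horizontal axes) of all 21 probe sets of the 10 genes at 12, 24 and 72 h against 0 h, with filled points for the brightest probe set of a gene and open points for its others. Both TXNIP probe sets lie at 2.43 to 3.92, while the probe sets of MLXIP, SLC2A3 and HK1 fall on both sides of 0.

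The thresholds of the study's methods (adjusted p below 0.001 with a fold change above 1.5) were passed by 3 of the 10 members upward and 1 downward at each time. At 12 and 24 h these were TXNIP, ARRDC3 and ARRDC4 upward and PFKP downward, and at 72 h ARRDC2 took the place of ARRDC4. Of all genes, 4.26% rose and 6.30% fell at 12 h, 8.01% and 10.0% at 24 h, and 8.73% and 11.0% at 72 h. Since the members were chosen with these contrasts known, nothing is read from their count. For the same reason, each member's passing of the thresholds, here and below, describes its values and is not a test. Counted by probe set, 4 of 21 were higher and 1 lower past the thresholds at each time, where 3.77% of the named probe sets rose and 5.89% fell at 12 h, 6.97% and 9.96% at 24 h, and 7.75% and 11.1% at 72 h. The second TXNIP probe set was the only one of the 11 that are not the brightest of their gene to pass. Arrays did not overlap those of 0 h upward for 4, 5 and 5 members and downward for 4, 2 and 2 at 12, 24 and 72 h, where 22.1%, 28.2% and 26.3% of all genes lay wholly above and 22.9%, 24.8% and 26.4% wholly below. The median change of the members was 0.09, 0.11 and 0.20, beside 0.01, 0.03 and 0.02 over all genes. The count at 12 h rested on single arrays: leaving out 0 h replicate 2 left TXNIP and ARRDC4 past the thresholds, ARRDC3 or PFKP was lost without any 1 of 0 h replicates 1 and 3 and the 3 arrays of 12 h, and the methods' analysis of variance with q-values left TXNIP alone. At 72 h, ARRDC4 passed as well without 0 h replicate 1 or 72 h replicate 3. Between treated times, on the values as deposited, TXNIP was the only member past the thresholds, upward at 24 h and at 72 h against 12 h. In these contrasts 1.41% and 4.80% of all genes rose. The second TXNIP probe set differed by 0.62 and 0.40 there and passed in neither.

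**Figure D3:**
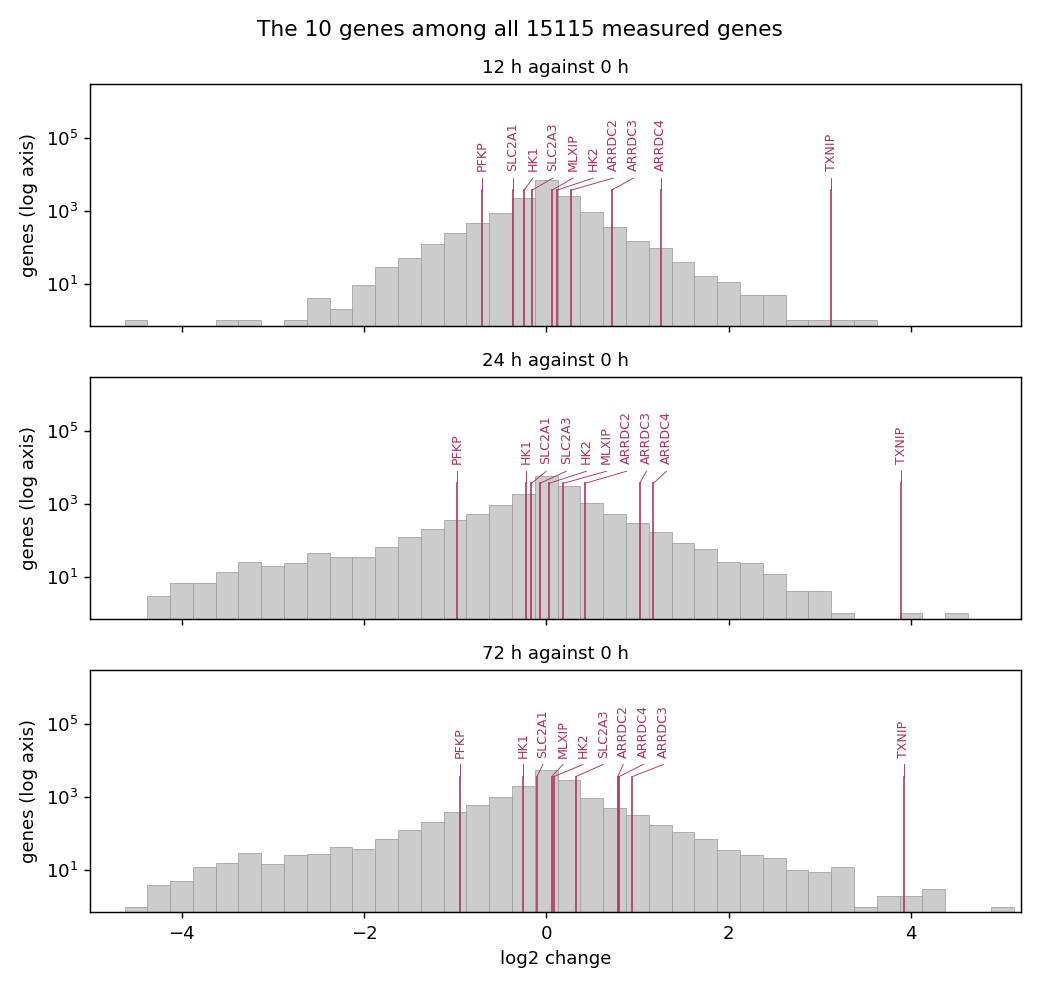
Number of genes (vertical axes, log scale) by log2 change in bins of 0.25 (horizontal axis) at 12, 24 and 72 h against 0 h, over 15115 genes by their brightest probe set, with a line at each of the 10 genes. TXNIP lies at 3.13, 3.89 and 3.92 in the upper tail, and 6 genes at 12 and 24 h lie between −0.37 and 0.42, of which ARRDC2, MLXIP and HK2 fall below 0 on the poly-A scale.

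Scaling mattered for the direction of the weaker members. Quantile normalization leaves every array with nearly the same distribution, whereas the 36 bacterial poly-A control probe sets read higher by 0.293, 0.603 and 0.471 at 12, 24 and 72 h than at 0 h. When arrays were shifted to equal poly-A signal, TXNIP still exceeded 0 h by 2.83, 3.29 and 3.45, ARRDC3 by 0.42, 0.42 and 0.47 and ARRDC4 by 0.96, 0.57 and 0.33. ARRDC2 then differed by -0.02, -0.18 and 0.31, so that its sign turned at 12 and 24 h. PFKP differed by -0.99, -1.58 and -1.42, SLC2A1 by -0.66, -0.77 and -0.57 and HK1 by -0.54, -0.82 and -0.73. SLC2A3 differed by -0.45, -0.68 and -0.15, which turns its sign at 72 h, and MLXIP and HK2 turned negative at all 3 times. On this scale TXNIP and ARRDC4 upward and SLC2A1 and PFKP downward passed the thresholds at 12 h, TXNIP upward and SLC2A1, SLC2A3, HK1 and PFKP downward at 24 h, and TXNIP upward and HK1 and PFKP downward at 72 h. The controls also read higher by 0.310 at 24 h than at 12 h, which leaves the TXNIP difference between these times below 1.5-fold. The same amount of total RNA was used for each array, so levels per cell were not measured. Which scale better reflects the RNA of the samples was not tested.

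Of 78 other genes listed for these pathways, 70 were measured and tested. At 12 h 2 rose and 4 fell (2.86% and 5.71%), at 24 h 7 rose and 7 fell (10% each) and at 72 h 4 rose and 7 fell (5.71% and 10%), shares near those of all genes given above. On the poly-A scale 1 rose and 10 fell at 12 h, 1 rose and 31 fell at 24 h, and 3 rose and 22 fell at 72 h. Of the 29254 named probe sets, 474, 536 and 904 rose and 4043, 14140 and 9157 fell on that scale. Nothing is read from poly-A counts of these lists, here or below. The median changes of the 70 genes were 0.04, 0.05 and 0.00.

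Among other arrestins, ARRDC5 was the 1 of 5 measured genes that passed (limma, Benjamini-Hochberg adjustment, here and below). It read 5.52, 5.71 and 5.71 at 0 h, 6.30, 5.70 and 6.10 at 12 h, 6.38, 6.23 and 6.61 at 24 h and 7.93, 8.09 and 8.02 at 72 h. The difference of 0.39 at 12 h did not pass, and it rose by 0.76 at 24 h (adjusted p = 0.000586) and by 2.37 at 72 h (adjusted p = 1.73e-08). The call at 24 h was lost without any 1 of the 0 h arrays, 12 h replicate 3, 24 h replicates 1 and 3 or 72 h replicate 2, with adjusted p between 0.00105 and 0.00364. It was also lost under the methods' analysis of variance (q = 0.00258) and on the poly-A scale, where the difference was 0.16 (adjusted p = 0.345). Most of the ARRDC5 difference at 72 h came after 24 h.

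Of the partners of MondoA and the thioredoxin system, 0 of 7 passed at 12 or 72 h by limma. By the methods' analysis of variance 0 passed too, while 5 and 4 had an unadjusted p below 0.05 by limma. The share of all genes under that unadjusted limit was not counted, so nothing is read from such counts here or below. On the poly-A scale 2 of the 7, TXNRD1 and TXNRD3, fell at 12 and 72 h. TXNRD3 fell by 0.62 (adjusted p = 0.000494) at 12 h and by 1.00 (adjusted p = 1.66e-07) at 72 h. TXNRD2, the mitochondrial thioredoxin reductase, rose by 0.89 at 24 h (adjusted p = 9.69e-08), and TXNRD3, a testis-enriched reductase in mouse, fell by 0.64 (adjusted p = 0.000137). The TXNRD3 call was lost without 0 h replicate 2 or 24 h replicate 3, with an adjusted p of 0.00104 in each case, and by the mean of its probe sets (-0.32). The TXNRD2 call was lost on the poly-A scale (0.28, adjusted p = 0.0457), and the mean of its probe sets was below 1.5-fold (0.51). Without 72 h replicate 2, TXNRD2 rose at 72 h too (0.60, adjusted p = 2.52e-05). A second TXNRD2 probe set rose alike at 24 h (0.98) and 2 did not (0.07 and 0.10), and the other TXNRD3 probe set differed by 0.01. MLX, the dimerization partner of MondoA, and TXN, the thioredoxin that TXNIP binds, were named for their roles outside the rule: MLX differed by -0.17, 0.09 and -0.09 and TXN by -0.08, -0.36 and -0.04. On the poly-A scale TXN passed as a fall at 24 h.

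Ubiquitin ligases that alpha-arrestins recruit and subunits of AMPK, a kinase that in human and mouse cells marks TXNIP for degradation, made up 11 genes, of which 2 rose at 12 h, 3 rose at 24 h, and 2 rose and 2 fell at 72 h. NEDD4, the founding ligase of the family, read 7.87, 7.81 and 7.79 at 0 h, 8.70, 8.77 and 8.89 at 12 h, 9.22, 9.07 and 9.15 at 24 h and 7.63, 7.56 and 7.64 at 72 h. It rose by 0.96 at 12 h (adjusted p = 2.65e-07) and by 1.32 at 24 h (adjusted p = 5.71e-09), and all 72 h arrays lay below those of 0 h, with a difference of -0.21 (adjusted p = 0.0232) that did not pass. This difference was -0.68 (adjusted p = 7.96e-05) on the poly-A scale and passed as a fall. WWP2, another ligase, rose by 0.91 at 24 h and 1.03 at 72 h (adjusted p = 1.79e-05 and 5.01e-06), on 2 of its 4 probe sets. Both WWP2 calls were lost on the poly-A scale, where the differences were 0.31 (adjusted p = 0.0399) and 0.56 (adjusted p = 0.000953, below 1.5-fold). NEDD4L, named after its values were seen, fell by 0.68 at 72 h (adjusted p = 2.96e-06), which its 2 other probe sets (-0.15 and 0.07) did not show.

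PRKAG2, a regulatory gamma subunit of AMPK, rose by 0.59, 1.07 and 1.48 at 12, 24 and 72 h (adjusted p = 1.91e-05, 3.81e-08 and 1.65e-09), and without 0 h replicate 3 or 12 h replicate 1 its 12 h change fell short of 1.5-fold (0.58 and 0.54). On the poly-A scale its changes at 12 and 24 h were 0.29 and 0.47 (adjusted p = 0.0691 and 0.00189) and did not pass, and by the mean of its probe sets they were 0.27 and 0.54, below 1.5-fold, as was the 12 h change with equal array medians (0.55). Of its 6 probe sets, 3 rose at 24 h and 3 differed by −0.03 to 0.21. PRKAB2, a beta subunit, read 6.13, 6.04 and 6.28 at 72 h, against 7.24, 7.26 and 7.21 at 0 h, and fell by 1.08 at that time only (adjusted p = 1.16e-07). The brightest probe set of ITCH, a ligase that targets TXNIP in human cells and is outside the rule too, differed by 0.07, -0.01 and -0.50 and did not pass, and its 4 probe sets disagreed. On the poly-A scale ITCH passed as a fall at 24 and 72 h.

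Among 11 other measured glucose transporters, 2 fell at 12 and 24 h and 1 at 72 h. By limma and by the methods' analysis of variance 0 rose, and 1, 0 and 1 were higher at an unadjusted p below 0.05. SLC2A13, a proton-coupled myo-inositol transporter, read 7.89, 7.84 and 7.92 at 0 h, 6.66, 6.64 and 6.80 at 12 h, 6.41, 6.38 and 6.42 at 24 h and 6.95, 6.80 and 7.22 at 72 h. It fell by 1.19, 1.48 and 0.90 (adjusted p = 7.6e-07, 4.01e-08 and 3.86e-06). SLC2A6 (GLUT6), a transporter of lysosomal membranes, fell by 0.85 at 12 h (adjusted p = 9.63e-06) and 0.66 at 24 h (adjusted p = 4.47e-05), while its difference of -0.16 at 72 h (adjusted p = 0.171) did not pass and its arrays overlapped those of 0 h. On the poly-A scale the 72 h difference was -0.64 (adjusted p = 0.000205) and passed as a fall, and by the mean of both probe sets the 24 h change was below 1.5-fold (-0.47). The other SLC2A6 probe set differed by -0.51, -0.27 and -0.21 and did not pass.

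Of 7 other hexokinase and glucose 6-phosphate genes, 0 passed at any time by limma or by the methods' analysis of variance, with changes between −0.32 and 0.39, and 2, 3 and 2 had an unadjusted p below 0.05 at 12, 24 and 72 h. HKDC1 and G6PC3, 2 of the 7, fell at 24 h on the poly-A scale. Of 9 genes of phosphofructokinase and its regulators, TIGAR fell and 8 did not pass, while on the poly-A scale 2, 4 and 1 of the 9 fell. TIGAR, a phosphatase that lowers the fructose 2,6-bisphosphate on which phosphofructokinase depends, read 9.69, 9.82 and 9.81 at 0 h, 8.29, 8.24 and 8.30 at 12 h, 8.26, 8.25 and 8.13 at 24 h and 8.37, 8.41 and 8.54 at 72 h. It fell by 1.5, 1.56 and 1.33 (adjusted p = 9.65e-09, 1.53e-09 and 5.14e-09), and all of its 3 probe sets fell at all 3 times.

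Of 16 measured genes of lower glycolysis and lactate export, 1 fell at 12 h, 2 rose and 2 fell at 24 h, and 1 rose and 2 fell at 72 h. At these times 6, 10 and 8 of the 16 lay wholly below 0 h, where 22.9%, 24.8% and 26.4% of all genes did. Wholly above lay 4, 5 and 5, where 22.1%, 28.2% and 26.3% of all genes did. The median changes of the 16 were -0.05, -0.26 and -0.13. The list as a whole was not tested. PKLR, the liver and red cell pyruvate kinase, fell by 0.73, 1.46 and 1.39 (adjusted p = 0.000395, 4.63e-07 and 6.36e-07), and the 12 h call was lost without 0 h replicate 2 or 3 or any 12 h array (adjusted p 0.00114 to 0.00264), with the arrays of 0 and 12 h alone (adjusted p = 0.00203) and under the methods' analysis of variance (q = 0.00225). SLC16A1 (MCT1) fell by 1.36 at 24 h and 0.95 at 72 h (adjusted p = 2.31e-05 and 0.000489), the later call being lost without any 1 of 0 h replicates 1 and 2 and the 72 h arrays (adjusted p 0.00118 to 0.00296) and under the methods' analysis of variance (q = 0.00246), and its mean level was in the dimmest 40%. SLC16A7 (MCT2) rose by 0.92 at 24 h and 1.21 at 72 h (adjusted p = 1.05e-06 and 7.2e-08), and on the poly-A scale its 24 h change was 0.32 (adjusted p = 0.0333) and did not pass, whereas SLC16A1 fell at 12 h as well (-1.03, adjusted p = 2.18e-05). ALDOC, an aldolase, rose by 0.62 at 24 h (adjusted p = 2.38e-06), and its other probe set rose at 12 h (0.61) in place of 24 h (0.53). On the poly-A scale the ALDOC difference at 24 h was 0.01. On it 10 of the 16 genes fell at 24 h, beside 14140 of the 29254 named probe sets. In the pentose phosphate pathway, 1 of 4 measured genes passed, the epimerase RPE, which fell by 0.66 at 24 h and 0.70 at 72 h (adjusted p = 1.6e-06 and 7.98e-07), on 3 of its 4 probe sets. By the mean of its 4 probe sets both RPE changes were below 1.5-fold (-0.56 and -0.51), and on the poly-A scale it fell at 12 h too (-0.84, adjusted p = 6e-06).

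**Figure D4:**
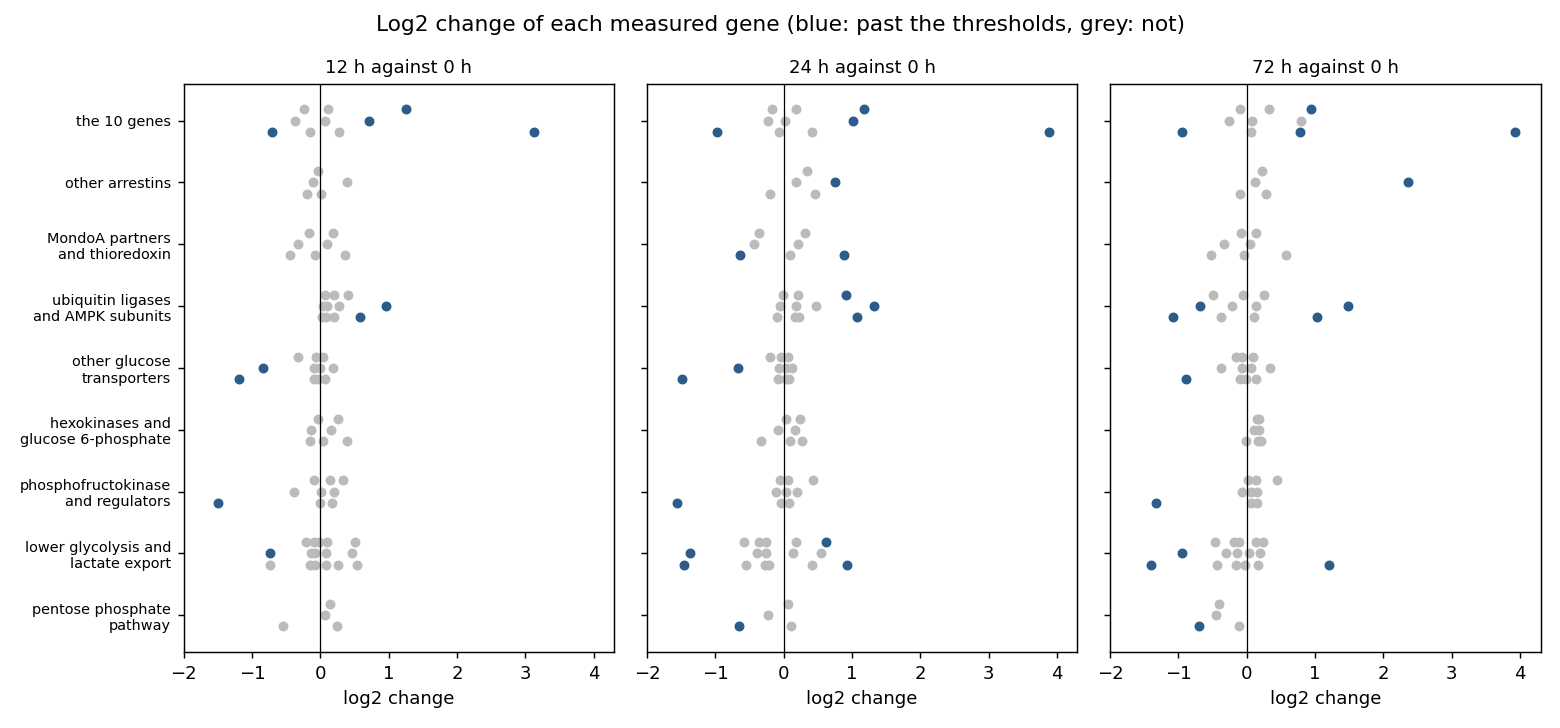
Log2 change (horizontal axes) at 12, 24 and 72 h against 0 h of each measured gene by its brightest probe set, with the 10 genes in the top row and 1 row per list of other pathway genes below, in blue past both thresholds and in grey otherwise. No gene of the hexokinase list is blue, TIGAR is the blue point of the phosphofructokinase list at −1.56 to −1.33, and on the poly-A scale all points would lie lower by 0.293, 0.603 and 0.471.

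The genes whose profile over the 12 arrays was most like that of TXNIP were sought among 1876 genes whose time means span at least 1 log2 unit, by Pearson's r, as a description. The 12 points are 4 groups of 3 arrays, so a high r mainly states a like order and spacing of the 4 time points, and 217 genes had r above 0.95 and 215 below −0.95. The most alike were FBXO25 and CCNDBP1 (r = 0.998 each), CCPG1 (0.998), GCSAML, DSCAML1 and TSC22D3 (0.996 each). FBXO25, an F-box protein of a ubiquitin ligase, read 6.84, 7.02 and 7.12 at 0 h, 8.82, 8.86 and 8.88 at 12 h, 9.43, 9.33 and 9.37 at 24 h and 9.37, 9.44 and 9.50 at 72 h, differences of 1.86, 2.38 and 2.44. TSC22D3, the glucocorticoid-induced leucine zipper protein, had differences of 1.00, 1.20 and 1.31, and the other 4 had 1.18 to 1.93 at 12 h and 1.51 to 2.34 at 72 h. The other DSCAML1 probe set did not follow (-0.01, 0.13 and 0.32). Other CCPG1 probe sets had differences of 1.581, 1.432 and 1.405 and of 2.209, 1.938 and 1.5 (SE 0.413), each highest at 12 h. On its dimmest probe set they were 0.27, 0.40 and 0.47. The other probe sets of FBXO25, CCNDBP1 and TSC22D3 had higher means than at 0 h at all treated times. The most opposed were TP53RK (r = -0.994), TIMM44 and UCK2 (-0.993 each) and ADSL (-0.992), with differences of −1.20 to −0.85 at 12 h and −1.64 to −1.09 at 72 h. All of these had smaller changes than TXNIP.

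Among the members themselves, r with TXNIP was 0.95 for ARRDC3, 0.801 for ARRDC4, 0.785 for ARRDC2 and -0.95 for PFKP. It was 0.434 for MLXIP, 0.251 for HK2, 0.202 for SLC2A3, -0.439 for SLC2A1 and -0.707 for HK1. ARRDC3 and PFKP thus shared the course of TXNIP, upward and downward, in which most of the difference is present at 12 h and the levels of 24 and 72 h lie within 0.08 of each other, whereas the ARRDC4 arrays at 72 h lay below those of 12 and 24 h, which overlapped, and ARRDC2 was highest at 72 h.

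**Figure D5:**
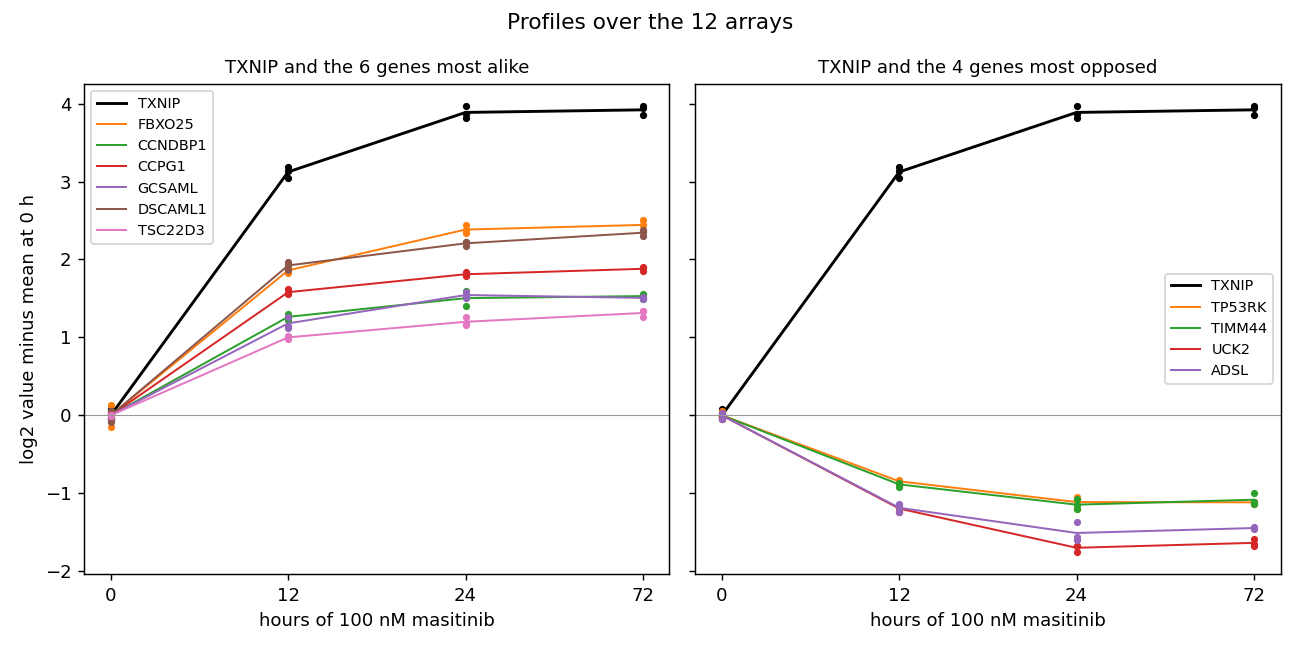
Log2 value minus the mean at 0 h (vertical axis) at 0, 12, 24 and 72 h of 100 nM masitinib (horizontal axis) for TXNIP and the 6 genes with the highest r (left) or the 4 with the lowest (right), with 1 point per array and a line through the time means. TXNIP ends at 3.92, the 6 alike genes at 1.31 to 2.44 and the 4 opposed genes at −1.64 to −1.09.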

How the data were processed

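The deposited values, in 1 table of 12 columns, are log2 expression values, made by the authors in Partek by its gcRMA route (RMA background correction, quantile normalization, median polish summary). Partek and RMA also stand, without a version, in the submitters' processing notes. Quantile normalization removes a shift that most transcripts share.

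From these values, 111 Affymetrix controls were set aside and limma 3.58.1 (lmFit and eBayes, R 4.3.3) was fitted over 42924 probe sets with 1 coefficient per time point and Benjamini-Hochberg adjustment. Figures were drawn with matplotlib 3.10.9 in Python 3.11.15. Symbols came from the platform annotation, with 27680 updated through Entrez to the names of assembly UU_Cfam_GSD_1.0. Of the probe sets, 29254 had 1 symbol, 439 several and 13231 none. A gene was read by the probe set with the highest mean. The methods' thresholds were used. The members and lists were chosen with earlier results of these data known, and lists come from general knowledge. Named were all members, up to 4 genes per list with the largest change among those that passed, and the 6 most and 4 least TXNIP-like genes. Replicates are flasks of 1 line, so p-values measure only the spread between these samples. The median residual SD was 0.1129. The fit was run on simulated arrays with independent noise and few changed probe sets, at 72 h only. These data hold many more changes, so that run does not measure the error of the calls here. Alternatives were poly-A and median scaling, the methods' analysis of variance, omission of dim probe sets, the replicate number as a block, fewer arrays, and the mean of a gene's probe sets. Replicate numbers were not used as pairs in the main fit. Deviations of same-numbered arrays correlated at −0.379 to 0.464 and of differently numbered arrays at −0.505 to 0.508. These ranges show no pairing but cannot exclude it. Promoter sequences were not used here.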

Additional observations from a re-analysis of the deposited data

Results flagged for a closer look

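Changes that differed between treated times by the same limma test, among the pathway genes named above, were these. NEDD4 was lower at 72 h than at 24 h by 1.53 (difference -1.53, SE 0.0669, adjusted p = 4.03e-08) and than at 12 h (difference -1.18, adjusted p = 3.92e-08), so that its rise was present at 12 and 24 h and absent at 72 h in all 3 arrays. PRKAB2 was lower at 72 h than at 24 h (-1.26, adjusted p = 4.3e-07) and than at 12 h (-1.13, adjusted p = 2.07e-07). ARRDC5 was higher at 72 h than at 24 h by 1.61 (adjusted p = 5.52e-06) and than at 12 h by 1.98 (adjusted p = 2.25e-07). PRKAG2 (0.90, adjusted p = 4.21e-07), WWP2 (0.62, adjusted p = 0.000694), SLC16A7 (0.70, adjusted p = 2.51e-05) and SLC2A6 (0.68, adjusted p = 5.9e-05) were higher at 72 h than at 12 h. PKLR was lower at 24 h (-0.73, adjusted p = 0.000802) and at 72 h (-0.66, adjusted p = 0.000806) than at 12 h. For single genes, these differences between treated times were not run under the alternatives below. The poly-A controls read higher by 0.178 at 72 h than at 12 h. Removing that shift would leave WWP2, SLC16A7 and SLC2A6 below 1.5-fold.

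SLC2A3 lay on opposite sides of its 0 h level, below it in all arrays at 12 and 24 h and above it in all arrays at 72 h. The level at 72 h exceeded that at 12 h by 0.48 and that at 24 h by 0.40 (SE 0.0511), and this difference was not tested. With the poly-A scale the side at 72 h turns.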

How the results depend on the processing

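No result changed direction past a threshold under the alternatives run. Shifting arrays to equal poly-A signal gave 4517, 14676 and 10061 named probe sets past the thresholds at 12, 24 and 72 h against 0 h (89.5%, 96.3% and 91.0% of them falls), where the values as deposited gave 2826, 4953 and 5510 (60.9%, 58.8% and 58.9% falls), 2509 (96.2% falls) at 24 h against 12 h in place of 1161 (70.4%), and 11, 32 and 25 other pathway genes in place of 6, 14 and 11. With only the compared arrays, 537 in place of 1008 named probe sets passed at 72 h against 24 h. The mean of all probe sets of a gene gave 9 in place of 14 other pathway genes at 24 h. At 12 h the methods' analysis of variance gave 1 member past the thresholds in place of 4, and leaving out each array in turn gave 2 to 4. The replicate number as a block kept 4 members at each time, and PKLR at 12 h (adjusted p = 0.00144), ARRDC5 at 24 h (0.001) and SLC16A1 at 72 h (0.00104) no longer passed. Of 18 pairs of same-numbered arrays, 5 correlated above 0.1, as did 12 of 36 pairs of differently numbered arrays. Poly-A scaling also took PRKAG2 at 12 and 24 h, ARRDC5, TXNRD2, SLC16A7 and ALDOC at 24 h and WWP2 at 24 and 72 h below the thresholds, and brought falls of TXNRD3 at 12 and 72 h, SLC16A1 and RPE at 12 h and NEDD4 and SLC2A6 at 72 h past them. Of the genes named outside the rule, ITCH at 24 and 72 h and TXN at 24 h passed as falls on that scale. The analysis of variance lost the same 3 calls as the block. The number of arrays, 3 per time point, limits the precision of all values.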
